A study of Homo sapiens with 7 samples.

Results

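The genes described here are 43 genes of leukocyte, platelet and epithelial integrins, selectins and their ligands, and cell junction molecules. They were chosen by name, and 42 of them were placed in the annotation used (GENCODE release 44, lifted to GRCh37), out of 20163 protein-coding genes. PECAM1 was not placed and was not analysed here. ChIP-seq, in which an antibody pulls down a protein or a marked histone together with its DNA for sequencing, had been carried out in Kasumi-1 cells, an established myeloblast line from peripheral blood that carries the t(8;21) translocation. Kasumi-1 cells make both AML1 (RUNX1), a DNA-binding regulator of blood cell genes, and AML1-ETO, the fusion of the DNA-binding part of AML1 with ETO (RUNX1T1). The 5 groups are the libraries of 5 antibodies in these untreated, growing cells, namely AML1 (an antibody to the part of AML1 that the fusion lacks), AML1-ETO (an antibody to ETO), the co-repressor N-CoR, the co-activator p300, and H3K4me3, a histone mark of active promoters. All share the same cell line and the same fusion, so there is no sample without AML1-ETO, and the libraries of an antibody had been pooled into 1 list of peak summits before deposit. The AML1 list holds 11692 summits and the AML1-ETO list 18087, while N-CoR has 10004, p300 has 11020 and H3K4me3 has 19632. The lists give positions without heights or read counts, so the reads behind a summit cannot be read from them, no spread between replicates can be given and no test was made between libraries or classes of genes.

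Integrins are paired receptors of an alpha and a beta chain that fix cells to matrix or to other cells. Leukocytes carry those built on the beta chain ITGB2 with ITGAL, ITGAM, ITGAX or ITGAD, which bind the ICAM proteins, and those of ITGA4, which pair with ITGB1 or ITGB7 and bind VCAM1 and fibronectin. Platelets use ITGA2B with ITGB3 as a fibrinogen receptor, whereas ITGA6 with ITGB4 anchors epithelial cells in hemidesmosomes and ITGB6 marks epithelia. Selectins (SELE, SELP) on endothelium and platelets catch rolling leukocytes through SELPLG, their main ligand on myeloid cells. The members were divided into 8 leukocyte, 2 platelet, 4 epithelial and 12 other integrins, 4 selectins and ligands, 7 placed Ig-family ligands, and 5 junction genes.

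The windows below are 100 bp around an AML1-ETO summit, read 5′ to 3′ from the plus strand of GRCh37. They are chosen examples of the fusion protein's sites at these genes. Capitals mark the Runx consensus TGTGGT, which reads ACCACA where it lies on the minus strand. They also mark the PU.1 consensus GAGGAA, which then reads TTCCTC. The first 7 are, for each class, the window outside untranslated regions with the lowest number in the deposited AML1-ETO list among those that overlap an N-CoR window (for the platelet class, whose only AML1-ETO window overlaps none, that window). The last 3, at ITGB2, ITGB7 and ITGAM, were added after the values had been seen, to show further leukocyte integrins. Chosen in these ways, the windows need not be typical. Of all 58 AML1-ETO windows at the members, 37.9% overlapped N-CoR, 31.0% held GAGGAA and 24.1% held TGTGGT.
ITGA4: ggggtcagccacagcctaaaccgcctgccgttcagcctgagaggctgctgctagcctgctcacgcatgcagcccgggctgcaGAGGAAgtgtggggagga
ITGA2B: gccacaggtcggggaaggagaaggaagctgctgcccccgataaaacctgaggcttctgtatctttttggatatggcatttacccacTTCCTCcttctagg
ITGB4: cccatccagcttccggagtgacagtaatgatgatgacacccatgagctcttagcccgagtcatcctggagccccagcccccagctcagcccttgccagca
ITGA8: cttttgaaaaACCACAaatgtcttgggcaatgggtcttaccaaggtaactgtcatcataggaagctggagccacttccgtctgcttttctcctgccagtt
SELPLG: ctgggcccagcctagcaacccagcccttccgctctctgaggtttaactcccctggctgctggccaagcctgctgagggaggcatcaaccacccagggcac
ICAM1: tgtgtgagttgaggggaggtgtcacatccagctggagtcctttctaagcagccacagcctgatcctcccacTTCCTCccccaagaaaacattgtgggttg
F11R: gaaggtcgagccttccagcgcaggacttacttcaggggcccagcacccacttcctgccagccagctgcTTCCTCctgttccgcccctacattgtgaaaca
ITGB2: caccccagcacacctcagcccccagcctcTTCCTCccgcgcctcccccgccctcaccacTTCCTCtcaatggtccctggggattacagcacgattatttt
ITGB7: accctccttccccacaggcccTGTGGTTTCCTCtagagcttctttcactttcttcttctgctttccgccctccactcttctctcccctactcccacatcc
ITGAM: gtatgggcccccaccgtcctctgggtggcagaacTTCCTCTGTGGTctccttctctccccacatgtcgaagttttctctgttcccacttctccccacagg
The ITGA4 window (chr2:182321468-182321567, number 285) lies 411 bp upstream of an annotated transcription start, and that of ITGA2B (chr17:42467298-42467397, number 1678) lies 331 bp upstream of one. The ITGB4 window (chr17:73734306-73734405, number 17669) is intronic, and the ITGA8 summit (chr10:15714583-15714682, number 2133) falls in an exon. The SELPLG window (chr12:109025884-109025983, number 1932) is 80 bp upstream of an internal start. The ICAM1 window (chr19:10397299-10397398, number 3695) sits between genes, 282 bp upstream of the start of ICAM4, and that of F11R (chr1:160983656-160983755, number 2479) is intronic. At ITGB2 (chr21:46351151-46351250, number 1446) the summit is 703 bp downstream of the most upstream start, at ITGB7 (chr12:53602853-53602952, number 2460) it is 1837 bp upstream of a start, and at ITGAM (chr16:31276617-31276716, number 11188) it is intronic. In the ITGB7 and ITGAM windows the Runx and PU.1 consensus sequences touch, in opposite orders, and the ITGB4 and SELPLG windows hold neither.

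AML1-ETO, the longest list of the 4 proteins, was found at more of the adhesion genes than the other proteins, and p300 at the fewest. A summit in the gene body or within 5 kb of it (called the locus below) was listed for AML1-ETO at 28 of the 42 genes, 66.7%, against 41.3% of all protein-coding genes. AML1 had one at 22 members (background 34.9%), N-CoR at 21 (26.7%) and p300 at 14, 33.3%, against 45.5% of all genes. H3K4me3 was listed at 30 loci, 71.4%, near its background of 68.0%. With the first 5000 summits of each list, the proteins were closer, with AML1-ETO at 14 loci (background 15.1%), AML1 at 13 (17.5%), N-CoR at 12 (13.8%) and p300 at 11 (25.7%). The members are longer than most genes, with a median length of 44 kb against 27.2 kb, and a longer locus can hold more summits. Among the 31 members of 20 kb or more, AML1-ETO was at 61.3% (background 49.2% of all genes of that length), N-CoR at 48.4% (32.2%), AML1 at 41.9% (42.0%), p300 at 35.5% (50.3%) and H3K4me3 at 74.2% (76.0%). No summit of any list was found at 6 members, 14.3%, against 25.8% of all genes, namely ITGB6, ITGB8, ITGA10, ITGA11, SELE and VCAM1. With ITGAE, ITGB3 and JAM3, 9 members had no summit of the 4 proteins, 21.4% (background 38.5%).

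Within 1 kb of an annotated start, which is called the promoter here, AML1-ETO had a summit at 17 members, 40.5%, against 23.3% of all genes. AML1 was at 12 promoters (background 18.6%), N-CoR at 12 (13.3%), p300 at 11 (37.0%) and H3K4me3 at 27 (62.3%). The members have a median of 7 annotated starts against 5 for all genes. For AML1-ETO the member closest inside the limit was ESAM, at 962 bp, and the closest outside it was ITGB7, at 1110 bp. When only the most upstream start of each gene was used, p300 was left at 7 promoters and AML1-ETO at 15. The share of all genes was not computed for that start. Per 100 kb of locus, the members held 1.88 AML1-ETO summits against 1.04 over all genes, 1.1 N-CoR summits against 0.564, and 0.814 p300 summits against 0.854.

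**Figure D1:**
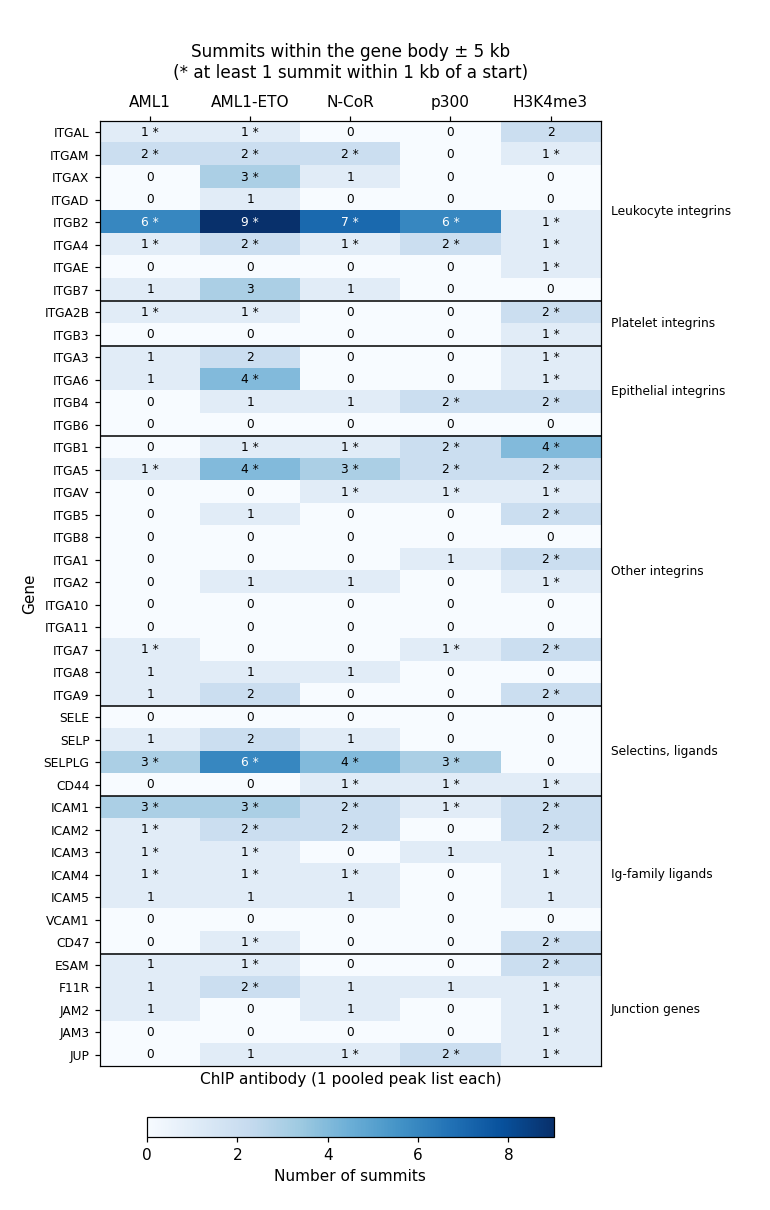
Number of summits in each gene's body ± 5 kb (cells; darker blue, more summits) for the 42 placed genes (rows, by class) and the 5 antibodies (columns); an asterisk marks at least 1 summit within 1 kb of a start. The row of ITGB2 is the darkest, with 9 AML1-ETO summits, and 6 rows hold no summit of any list.

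The leukocyte integrins were the richest of the integrin classes in AML1-ETO and N-CoR. AML1-ETO had a summit at 7 of the 8 loci, 87.5% (background 41.3%), and 5 of the 8 promoters, 62.5% (23.3%). N-CoR was at 5 loci, 62.5% (26.7%), and 3 promoters, 37.5% (13.3%), and AML1 at 5 loci (34.9%) and 4 promoters, 50.0% (18.6%). The co-activator p300 was at 2 loci, ITGB2 and ITGA4 (background 45.5%), with 1.62 summits per 100 kb of locus against 0.854 over all genes, and 6 of its 8 summits are at ITGB2. The class held 4.24 AML1-ETO summits per 100 kb of locus, and 2.73 without ITGB2.

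ITGB2, the beta chain common to the 4 leukocyte receptors, spans 46305868 to 46351904 on chromosome 21 (minus strand). Its locus holds 9 AML1-ETO, 7 N-CoR, 6 AML1, 6 p300 and 1 H3K4me3 summits. At least as many AML1-ETO summits were found at 0.476% of all protein-coding genes, and at least as many N-CoR and p300 summits at 0.362 and 0.258%. Of the AML1-ETO windows, 6 overlapped N-CoR and 5 overlapped p300, and each of those 5 also overlapped N-CoR. The lowest-numbered AML1-ETO summit (number 288) is 12 bp upstream of an internal start, and number 2534 stands on a start, 268 bp from the only H3K4me3 summit. The ITGB2 sites are therefore spread over several annotated starts and the introns between them. The AML1-ETO summit beyond the 3′ end lies nearer to a start of PTTG1IP.

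The alpha chains that pair with ITGB2 lie on chromosome 16, with ITGAM (31271288 to 31344213), ITGAX (31366455 to 31394320) and ITGAD (31404656 to 31437826) in a row on the plus strand. At ITGAM, which forms the complement receptor of myeloid cells, an AML1-ETO summit 18 bp upstream of the start (number 1119) had an N-CoR summit 13 bp away and also overlapped AML1. ITGAM holds a second intronic site with AML1-ETO and AML1, whose sequence is printed above, and an N-CoR summit deep in the gene. Its only H3K4me3 summit lies near the 3′ end, 951 bp from an internal start, so the mark was not listed at the start bound by AML1-ETO. At ITGAX there were 3 AML1-ETO summits, all upstream of the start, the nearest at 496 bp, and the one 2544 bp upstream overlapped N-CoR. ITGAD had a single AML1-ETO summit in an intron, 7023 bp from a start, with no other list at the locus. At ITGAL, the alpha chain of the lymphocyte function receptor (chromosome 16, 30483979 to 30534888), AML1 and AML1-ETO summits stood 24 and 11 bp upstream of a start, without N-CoR, p300 or promoter H3K4me3. The H3K4me3 summits of that locus lie beyond the gene, nearest to ZNF768. None of these 4 alpha chains had a p300 summit in the locus, and the nearest one to a start was 16129 bp away, at ITGAL.

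ITGA4 spans 182321929 to 182403667 on chromosome 2 and carried all 5 marks at its promoter. The AML1-ETO summit shown above, number 285 of 18087, overlapped AML1, N-CoR and p300 windows, with the N-CoR summit 21 bp and the p300 summit 28 bp away, and H3K4me3 stood 34 bp from a start. Its partner ITGB7 (chromosome 12, 53585107 to 53601066) had 3 AML1-ETO summits, 1 AML1 and 1 N-CoR summit, but no p300 or H3K4me3. The ITGB7 site with N-CoR and AML1 is the upstream one printed above. ITGAE, the alpha chain of intraepithelial lymphocytes that also pairs with ITGB7, had no summit of the 4 proteins. Its H3K4me3 summit is nearest to a start of HASPIN, a gene within ITGAE.

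Both platelet integrins had H3K4me3 within 1 kb of a start (background 62.3%), and 1 of them had summits of AML1 and AML1-ETO in its locus (background 34.9 and 41.3%). The class held 1.03 summits of each of these proteins per 100 kb of locus, against 0.671 and 1.04 over all genes. At ITGA2B (chromosome 17, 42449548 to 42467017) the AML1 and AML1-ETO summits lie 311 and 331 bp upstream of the start and overlap each other, and the nearest N-CoR summit to a start is 165601 bp away. Its H3K4me3 summits stand 25 and 48 bp from internal starts. ITGB3 (chromosome 17, 45331193 to 45391109) had no summit of the 4 proteins and an H3K4me3 summit 371 bp downstream of a start, which is nearer to a start of a gene without a symbol. The class thus has 1 AML1-ETO summit in all, and no N-CoR or p300.

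Among the 4 epithelial integrins, AML1-ETO was at 3 loci with 7 summits, of which 1 overlapped N-CoR, 2 overlapped AML1 and none overlapped p300. ITGA6 (chromosome 2, 173292082 to 173371187) held 4 of them, at 6 and 562 bp from a start and at 7231 and 5689 bp in introns, with 1 AML1 summit at the site 7231 bp inside. H3K4me3 stood 58 bp from the start of ITGA6, and no N-CoR or p300 summit was in the locus. ITGA3 had 2 AML1-ETO summits, of which the one beyond the 3′ end is nearer to PDK2. At ITGB4, the AML1-ETO summit printed above had N-CoR 4 bp away, and the p300 summits lay elsewhere, 771 bp upstream and 1279 bp downstream of starts. ITGB6 had no summit of any list, and the nearest AML1-ETO summit to a start was 167828 bp away. The class held 2.41 AML1-ETO summits per 100 kb of locus, or 1.49 without ITGA6, and 0.344 N-CoR summits, against 2.42 N-CoR summits in the leukocyte class, or 1.14 there without ITGB2. The difference between these classes, of 8 and 4 genes, was not tested.

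**Figure D2:**
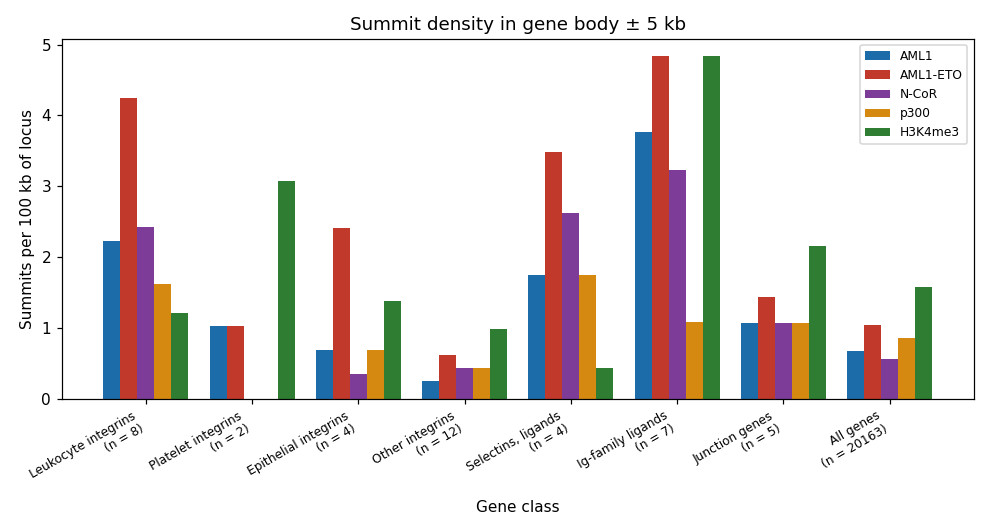
Summits per 100 kb of locus (gene body ± 5 kb, vertical axis) for each class of genes and for all protein-coding genes (horizontal axis, number of genes in brackets); bars are coloured by antibody and carry no error, since each antibody has 1 pooled list. The AML1-ETO bar of the leukocyte integrins reaches 4.24, that of the other integrins 0.618 and that of all genes 1.04.

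Among the integrin classes, the 12 other integrins had the lowest AML1-ETO density, 0.618 summits per 100 kb of locus. Without the 5 kb flank the platelet class was lower, at 0 against 0.467. For N-CoR the platelet and epithelial classes were lower, at 0 and 0.344 summits per 100 kb of locus against 0.433. Of the 12 genes, 8 had promoter H3K4me3, 66.7%, near the background of 62.3%. ITGA5, the fibronectin receptor chain (chromosome 12, 54789045 to 54813050), was the exception, with 4 AML1-ETO, 3 N-CoR, 2 p300 and 1 AML1 summits. At an internal start of ITGA5 all 4 proteins had a summit, AML1-ETO at 95 bp, AML1 at 67 bp, and N-CoR and p300 both at 64 bp upstream of it. ITGB1, the beta chain shared by most matrix receptors, had its AML1-ETO summit 6 bp upstream of the most upstream start. Its N-CoR summit and 1 of its 2 p300 summits were at a separate cluster of starts, 80 and 171 bp upstream of one, where they overlapped each other and H3K4me3 stood on either side. The other p300 summit was intronic, 11807 bp from a start. ITGA9, the longest member at 371.4 kb, had 2 AML1-ETO summits in introns. ITGAV, the chain of the vitronectin receptor, had N-CoR and p300 at its promoter, 52 and 66 bp upstream of a start, without AML1 or AML1-ETO. Of the rest, ITGA2 and ITGA8 had an AML1-ETO site with N-CoR far inside the gene (that in ITGA2 is nearest to MOCS2). ITGB5 had an intronic AML1-ETO summit, and ITGA1 had a p300 summit nearest to PELO. At ITGA7, AML1 and p300 were within 1 kb of a start, but the AML1 summit is nearest to a start of BLOC1S1. ITGA10, ITGA11 and ITGB8 had no summit of any list.

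SELPLG, the selectin ligand of myeloid cells (chromosome 12, 109015671 to 109027670), is a gene of 12.0 kb. Its locus of 22.0 kb had 6 AML1-ETO, 4 N-CoR, 3 p300 and 3 AML1 summits, some of them outside the gene, and no H3K4me3. At least as many AML1-ETO summits were found at 1.7% of all genes. ITGB2 and SELPLG were the 2 members with 5 or more (background 2.78%). The AML1-ETO summits of SELPLG numbered 716 and 1932 stand 40 bp downstream of its most upstream start and 80 bp upstream of the internal start, with N-CoR 74 and 1 bp away. The nearest H3K4me3 summit to a start of SELPLG was 26456 bp away. Of the selectins, SELE, found on endothelium, had no summit of any list. SELP, the platelet and endothelial one, had 2 AML1-ETO summits, 1 AML1 and 1 N-CoR, all more than 1 kb from a start. The AML1-ETO summit beyond the 3′ end of SELP lies nearest to a start of F5. CD44, the hyaluronan receptor, had N-CoR, p300 and H3K4me3 within 100 bp of its starts, and the nearest AML1-ETO summit to a start was 27644 bp away. The class held 3.49 AML1-ETO summits per 100 kb, but 0.967 without SELPLG.

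Of the 7 placed Ig-family ligands, 6 had AML1-ETO in the locus, 85.7% (background 41.3%), and 5 at the promoter, 71.4% (23.3%), and 2 had p300 in the locus, 28.6% (45.5%). ICAM1, the inducible ligand of the ITGB2 receptors (chromosome 19, 10381769 to 10397291), had AML1-ETO summits 625 and 58 bp upstream of the start. Both overlapped AML1, and the nearer one also overlapped N-CoR and p300. ICAM4 and ICAM5 follow ICAM1 at gaps of 340 and 1430 bp, so the site between ICAM1 and ICAM4 printed above, with AML1-ETO, AML1 and N-CoR, was counted at all 3 loci, where it is the only AML1-ETO summit of ICAM4 and ICAM5, and also in the class density of 4.84 AML1-ETO summits per 100 kb. ICAM2, the ligand found on leukocytes and endothelium (chromosome 17, 62079954 to 62097994), had AML1-ETO, N-CoR and AML1 summits 24, 39 and 84 bp upstream of a start and no p300. At ICAM3, a leukocyte ICAM, AML1-ETO and AML1 summits lay 53 and 46 bp upstream of a start with no H3K4me3 there, while its p300 and H3K4me3 summits lie beyond the gene, nearest to RAVER1. CD47, which signals to macrophages, had an AML1-ETO summit 240 bp downstream of a start between H3K4me3 summits. VCAM1, the endothelial ligand of ITGA4, had no summit of any list, and the nearest AML1-ETO summit to a start was 186924 bp away.

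All 5 junction genes had promoter H3K4me3 (background 62.3%), and 2 of them, 40.0%, had promoter AML1-ETO (23.3%). AML1-ETO was at 3 of the 5 loci, 60.0% (background 41.3%), with 1.43 summits per 100 kb of locus against 1.04 over all genes. F11R, which encodes the junction molecule JAM-A and is also found on leukocytes and platelets, had an intronic site 7180 bp inside (printed above) where AML1, AML1-ETO, N-CoR and p300 all overlapped, and an AML1-ETO summit alone 265 bp downstream of the start. ESAM had an AML1-ETO summit 962 bp upstream of an internal start, close to the limit of 1000 bp. JUP, the plakoglobin of desmosomes and adherens junctions, had N-CoR 220 bp and p300 250 bp upstream of a start, and its AML1-ETO summit lay elsewhere, 5401 bp away from one. JAM2 had AML1 with N-CoR in an intron, and JAM3 had H3K4me3 alone.

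**Figure D3:**
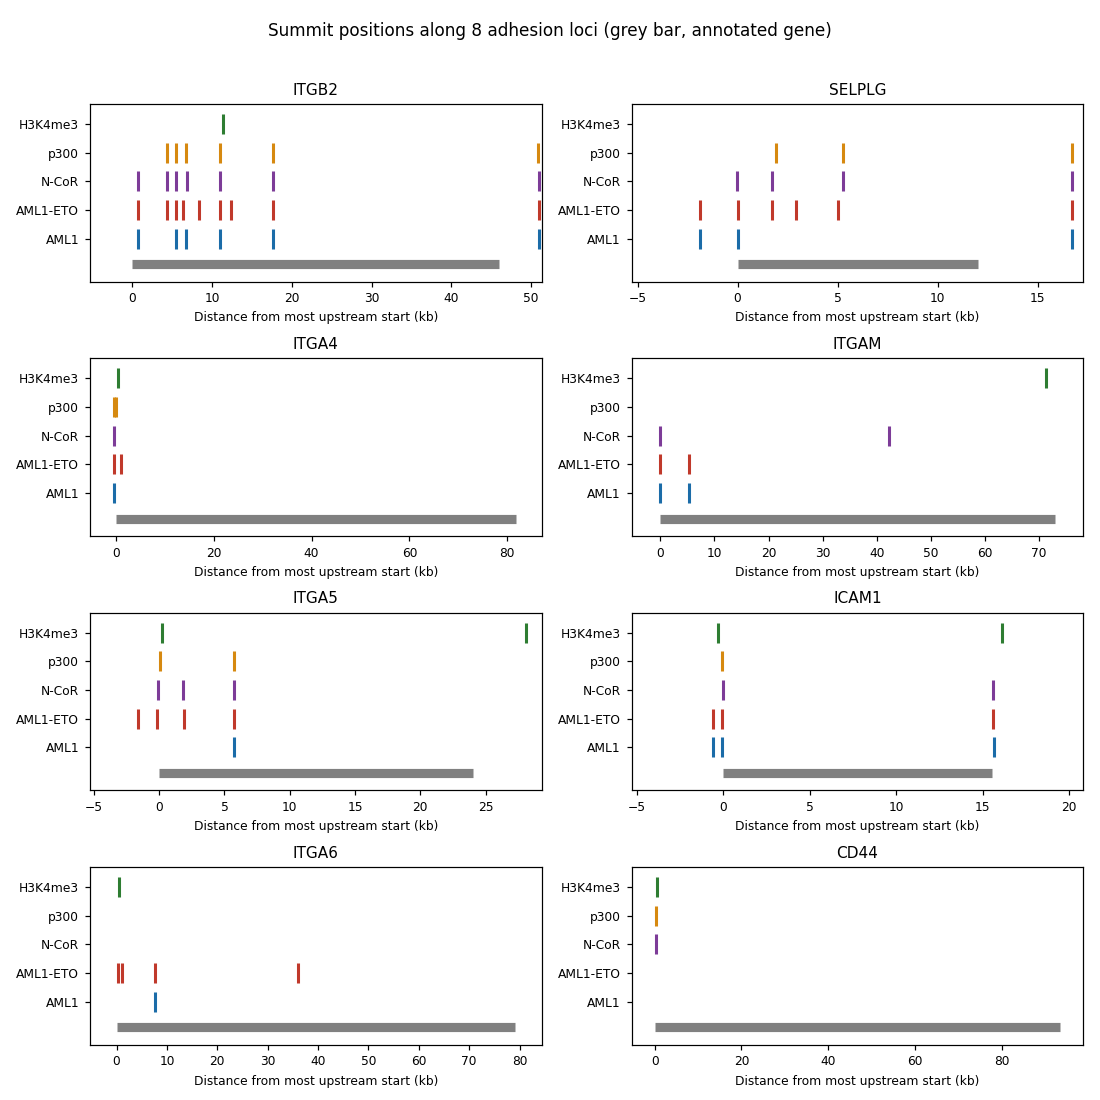
Positions of summits (ticks, coloured by antibody) along ITGB2, SELPLG, ITGA4, ITGAM, ITGA5, ICAM1, ITGA6 and CD44, as the distance in kb from the most upstream annotated start in the direction of transcription; the grey bar is the annotated gene. ITGB2 carries 9 AML1-ETO ticks, SELPLG has no H3K4me3 tick, and CD44 has N-CoR, p300 and H3K4me3 ticks alone.

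The 42 loci hold 58 distinct AML1-ETO summits. Their windows overlapped N-CoR at 22, 37.9% (exact Clopper-Pearson 95% interval 25.5 to 51.6%), p300 at 10, 17.2% (8.59 to 29.4%), and AML1 at 25, 43.1% (30.2 to 56.8%). Over the whole AML1-ETO list these shares were 38.9, 21.8 and 46.2%, all inside those intervals, which cover counting error over summits only. N-CoR without p300 was found at 12 windows, 20.7% (11.2 to 33.4%), against 23.2% of the whole list, and neither at 36, 62.1% (48.4 to 74.5%), against 55.0%. Each of the 10 windows with p300 also overlapped N-CoR, and p300 without N-CoR, at 0 windows (0 to 6.16%), was also rare in the whole list, at 6.1%. Of the 10 windows with p300, 5 are at ITGB2. In the leukocyte class 10 of 21 AML1-ETO windows overlapped N-CoR, 47.6% (25.7 to 70.2%), and in the epithelial class 1 of 7, 14.3% (0.361 to 57.9%). ITGB2 holds 9 of the 21 leukocyte windows and 6 of the 10 with N-CoR, and the difference between the classes was not tested.

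At the level of genes, AML1-ETO and N-CoR without p300 in the locus were found at 9 members, ITGAM, ITGAX, ITGB7, ITGA2, ITGA8, SELP, ICAM2, ICAM4 and ICAM5, which is 21.4% against a background of 4.72%. ICAM4 and ICAM5 are there through the same site. All 3 of AML1-ETO, N-CoR and p300 were at 9 members (background 18.0%), and AML1-ETO with neither co-regulator at 9, including ITGA6, ITGA2B and ITGAL (background 8.62%). All 4 proteins had a summit within 1 kb of a start, not always the same one, at 5 members, ITGB2, ITGA4, ITGA5, SELPLG and ICAM1 (background 5.97%). At SELPLG, AML1 was at the most upstream start and p300 at the internal one, and their summits there are 1873 bp apart. In the other direction, p300 without AML1-ETO was at 4 members, CD44, ITGAV, ITGA1 and ITGA7, 9.52% (background 17.5%). N-CoR without AML1-ETO was at 3, CD44, ITGAV and JAM2 (background 3.96%), and AML1 without AML1-ETO at 2, ITGA7 and JAM2 (background 7.01%).

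The 27 members with promoter H3K4me3 and the 15 without it (35.7%, background 37.7%) were then set beside genes of the same kind. With the mark, AML1-ETO was at 70.4% of member loci (background 53.5%), N-CoR at 55.6% (36.0%) and AML1 at 55.6% (46.2%), and p300 at 44.4%, against 66.2% of all genes with the mark. At their promoters AML1-ETO was at 48.1% (background 34.6%), N-CoR at 40.7% (20.2%), AML1 at 33.3% (28.2%) and p300 at 37.0% (58.4%). Without the mark, AML1-ETO was at 9 of 15 loci, 60.0%, against 21.3% of all unmarked genes, AML1 at 46.7% (16.0%), N-CoR at 40.0% (11.3%) and p300 at 13.3% (11.4%). These 9, 21.4% of the members against 8.01% of all genes, are ITGAL, ITGAX, ITGAD, ITGB7, ITGA8, SELP, SELPLG, ICAM3 and ICAM5, so 4 leukocyte integrins are among them. AML1-ETO within 1 kb of a start, in a gene with H3K4me3 at none of its starts, was found at 4 members, ITGAL, ITGAX, SELPLG and ICAM3 (background 1.76%), which are 26.7% of the unmarked members against 4.66% of unmarked genes. Of the 15 unmarked members, AML1 was at the promoter of 3, ITGAL, SELPLG and ICAM3, 20.0% (background 2.75% of unmarked genes). N-CoR and p300 were at the promoter of 1, SELPLG (background 1.95 and 1.55%). Some genes counted as marked had the mark at another start than the one with AML1-ETO, since the promoter AML1-ETO summit was 57406 bp from the nearest H3K4me3 summit at ITGAM, 4219 bp at ITGA2B and 3549 bp at ESAM. H3K4me3 with none of the 4 proteins in the locus was found at 3 members, ITGAE, ITGB3 and JAM3 (background 11.2%).

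**Figure D4:**
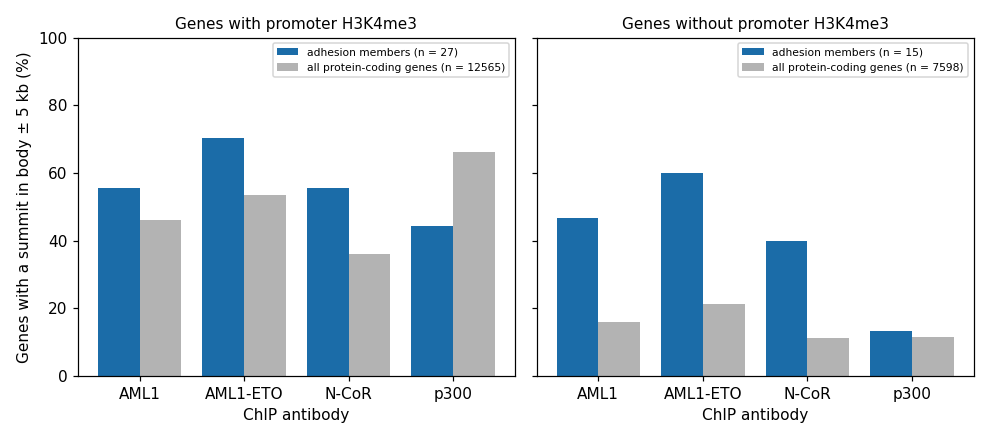
Percent of genes with a summit of each protein in the body ± 5 kb (vertical axis), for genes with (left) and without (right) an H3K4me3 summit within 1 kb of a start; blue bars are the adhesion genes and grey bars all protein-coding genes. The p300 bar of the marked adhesion genes is at 44.4% and its grey bar at 66.2%, and the AML1-ETO bar of the unmarked ones is at 60.0% and its grey bar at 21.3%.

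Both motifs were looked for on the plus and minus strands of each 100 bp window. Of the 58 AML1-ETO windows, 14 held TGTGGT, 24.1% (13.9 to 37.2%), and 18 held GAGGAA, 31.0% (19.5 to 44.5%), where all AML1-ETO windows held them in 31.3 and 26.0%. The ETS core AGGAAG, which overlaps GAGGAA in GAGGAAG, was in 39.7% of them, against 37.5% of all. The 26 p300 windows at the members held AGGAAG in 57.7% (36.9 to 76.6%), against 25.1% of all p300 windows. They held GAGGAA in 30.8% (14.3 to 51.8%), against 17.7% of all, and TGTGGT in 11.5% (2.45 to 30.2%), against 6.66%. The intervals of GAGGAA and TGTGGT include the share of all p300 windows. N-CoR overlapped 57.7% of the 26 windows, against 33.9% of all. Of these 26 windows 6 are at ITGB2 and so share a locus, and 61.5% (40.6 to 79.8%) had an H3K4me3 summit within 1 kb, against 71.7% of all p300 summits.

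The genes that switch integrins on or link them to actin had protein summits at most of their loci. Of 24 such genes, AML1-ETO was in the locus of 20, N-CoR of 19, AML1 of 18 and p300 of 21, which are 83.3, 79.2, 75.0 and 87.5%, and 23 had promoter H3K4me3, 95.8%. The shares of all genes were 41.3, 26.7, 34.9 and 45.5% for the proteins and 62.3% for the mark, and these 24 genes are long, with a median of 78.1 kb against 27.2 kb. The locus of PTK2B, a kinase of adhesion signalling in blood cells, held 12 AML1-ETO, 10 N-CoR and 7 p300 summits, and that of FERMT3, the kindlin of blood cells that activates the ITGB2 receptors, held 6, 3 and 3. APBB1IP, an adaptor that brings talin to integrins, had 7 AML1-ETO and 5 N-CoR summits, and TLN1, talin itself, had 3 and 2. Among 10 enzymes that build selectin ligands, AML1-ETO was at 8, 80.0%, and N-CoR at 7, 70.0%, against 41.3 and 26.7% of all genes, and their median length is 69.0 kb. The locus of FUT7, the fucosyltransferase needed for selectin binding, held 6 AML1-ETO summits, and that of FUT4, a related enzyme, held 2. FUT7 is 1.9 kb long in a locus of 11.9 kb, and 1 of the 6 lies within 1 kb of its start. The gene nearest to each of the 6 was not looked up. Of the 12 matrix and plasma ligands, AML1-ETO was at 5, 41.7%, near the 41.3% of all genes, and N-CoR at 2, 16.7% (background 26.7%). FN1 (fibronectin) and VWF had no summit of any list. Among 11 cadherin and desmosome partners, AML1-ETO was at 4, 36.4% (background 41.3%), AML1 at 7, 63.6% (34.9%), and H3K4me3 at 9 loci, 81.8% (68.0%). CTNNA1, the catenin that links cadherins to actin, held 9 AML1-ETO, 4 AML1 and 3 N-CoR summits, and CDH1, the cadherin of epithelia, had no summit of any list.

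Marker genes were read the same way, as a check of the cells. Promoter H3K4me3 was listed at 6 of 7 myeloid markers, all but LYZ (background 62.3%), and at none of 6 platelet and none of 5 endothelial markers. It was listed at 2 of 6 epithelial markers, EPCAM and ESRP1, while KRT8, KRT18 and KRT19, and the T cell genes CD3E and CD3D, had none at the promoter. AML1-ETO was in the locus of 6 myeloid markers, 85.7%, against 41.3% of all genes, and of 3 platelet, 2 epithelial and 1 endothelial markers, 50.0, 33.3 and 20.0%, among them GP6, a platelet collagen receptor, with 4 summits. CD79A, of B cells, also had 4, and CD3E had 2.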

How the data were processed

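The libraries were made from Kasumi-1 cells with 5 antibodies. The authors aligned reads to GRCh37 (hg19) with Bowtie 0.12.8, merged the 2 biological replicates made with an antibody and ran MACS2 2.0.10.20131216 on them at p < 1e-20, the versions being those of the submitters' processing notes, which also name CASAVA 1.6. The deposited lists were checked to hold intervals of 100 bp, a summit ± 50 bp, with no score, so a stricter peak threshold was not run. Their peak names carry the prefix eto in the N-CoR list and aml1 in the p300 and H3K4me3 lists, and antibodies were taken from the sample records. The order of the lists is not described in the sources used here, and a peak's number is its place in that order. The H3K27me3 and input libraries were not used here.

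A summit (BED start + 50) was assigned to a gene when within 1 kb of any start of its transcripts in GENCODE release 44, lifted to GRCh37, or within its body ± 5 kb. Windows of ± 50 bp that share at least 1 bp overlap. The background is all 20163 protein-coding genes. Without replicates the results are counts with no test, and Clopper-Pearson 95% intervals cover counting error only. Members and gene lists were chosen with earlier results of these data known. All leukocyte, platelet and epithelial integrins, members with promoter AML1-ETO, the 3 with most protein summits in each other class and those without a summit are named by rule, and others (such as ITGAV or PTK2B) after their values were seen. Counting was tested on simulated data. Sequences were read with samtools 1.23.1 and pysam 0.24.0, intervals came from SciPy 1.17.1, and tables and plots from pandas 2.3.3 and matplotlib 3.10.9 under Python 3.11.15.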

Additional observations from a re-analysis of the deposited data

How the results depend on the processing

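Of 102 values recomputed under alternatives, for 25 results, 81 stayed within 1.5 times the count or density, or within the interval of the share. Taking the first 5000 summits of each list, an order not described in the sources used here, left AML1, N-CoR and p300 at 7 promoters each and AML1-ETO and H3K4me3 at 8 each, and left AML1-ETO in 14 loci, AML1 in 13, N-CoR in 12, p300 in 11 and H3K4me3 in 10. With the most upstream start alone, p300 was at 7 promoters. Without the 5 kb flank, AML1 was at 12 loci and N-CoR at 13, and the platelet integrins had AML1-ETO at 0 loci (0 summits per 100 kb). Counting ITGA2 as a platelet integrin gave 2 platelet loci with AML1-ETO. The leukocyte N-CoR density was 1.14 per 100 kb without ITGB2. The AML1-ETO density was 2.73 per 100 kb in the leukocyte class without ITGB2 and 0.967 in the selectin class without SELPLG, these 3 chosen after seeing the data, and 1.49 in the epithelial class without ITGA6. GAGGAA was in 15.5% of AML1-ETO windows of ± 25 bp and in 46.6% of those of ± 100 bp, which hold fewer and more bases. The stricter peak threshold was not run, since the lists have no score. The lists do not give the reads behind a summit, so a gene without a listed summit cannot be said to be unbound.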

Other observations

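ITGA7, an integrin chain of muscle, and BLOC1S1 start next to each other on chromosome 12. Both the AML1 summit (number 79 of its list) and the p300 summit (number 18) stand within 2 bp of an annotated start of ITGA7. Their windows overlap there, with H3K4me3 158 bp downstream of a start. The AML1 and H3K4me3 summits of this site are nearest to a start of BLOC1S1. No AML1-ETO or N-CoR summit was in the locus of ITGA7, and the nearest AML1-ETO summit to a start was 12098 bp away. These are the lowest numbers of the AML1 and p300 lists at any of the 42 genes. The lowest number of the N-CoR list was 214, at the intronic F11R site with all 4 proteins. JAM3 was counted as free of AML1-ETO, and its nearest AML1-ETO summit lay 5849 bp from a start, just outside the 5 kb flank.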
